A study of Drosophila melanogaster with 8 samples.

Results

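The mitochondrial ribosomal protein genes are the nuclear genes whose products build the ribosome inside the mitochondrion. Members were taken as every gene of the dm6 annotation whose symbol begins with mRpL or mRpS, spelled with that case, which gave 73 of 18277 genes. These comprised 47 large subunit (mRpL) and 26 small subunit (mRpS) genes, and all 73 were protein coding. They lay on chromosomes 3R (21), 3L (17), 2L (12), 2R (12) and X (11). A member had a CDK9 peak when a peak overlapped, by at least 1 bp, a window of 1500 bp either side of any of its annotated starts or its gene body.

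The data are ChIP-seq peak lists for CDK9, the kinase of the elongation factor P-TEFb, from the Kc167 line, female hemocyte-like cells of embryonic origin from Drosophila melanogaster. Mock cells received no RNA and siAGO2 cells received RNA directed against Argonaute2 (AGO2), a small RNA binding protein, and both groups were collected 3 days after transfection. Each group held 2 CDK9 libraries made with an antibody against the endogenous protein and 2 input libraries, and the inputs enter here only through the background of the peak caller. Both groups derive from the same line, nothing in the labels says that the replicates came from separate cultures, and a p-value therefore measures the spread between these libraries, which may be technical.

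CDK9 phosphorylates the carboxy-terminal domain of RNA polymerase II and pausing factors, and its activity lets paused polymerase enter elongation. Mitochondrial ribosomes translate only the few proteins encoded by the mitochondrial genome, all of them subunits of oxidative phosphorylation (OXPHOS), while every protein of these ribosomes is encoded in the nucleus, made in the cytoplasm and imported. The large subunit carries the peptidyl transferase centre and the small subunit decodes the messenger RNA. A peak records binding of CDK9 to chromatin and not the expression of a gene.

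The length of the list and the background differed between the libraries. The lists held 3103 and 3804 peaks in mock replicates 1 and 2 and 1707 and 2295 peaks in siAGO2 replicates 1 and 2. The genome background, taken as the lowest local background recovered at any peak of a library, was 2.29 and 1.21 reads in mock and 0.814 and 0.864 reads in siAGO2. The lowest number of reads at the summit of any peak was 10, 7, 5 and 6 in the same order. Both siAGO2 libraries thus had a lower background and shorter lists than both mock libraries. Read totals were not used, so depth itself was not measured. The part of depth, background and list length in any lower count in siAGO2 was not tested. Of 11 hemocyte genes, markers of the labelled cell type, 7 had a peak in at least 1 library (63.6%, against 30.1% of all genes). Among them, srp and ush, which encode the hemocyte GATA factor Serpent and its cofactor U-shaped, had one in all 4 libraries. He had a peak in 1 library, and vkg and Col4a1 had equal folds in the same libraries. Hml, eater, NimC1 and crq had no peak.

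Sequence upstream of 4 members is shown, with the number of their summits that each stretch holds. Most of these genes stand head to head with a gene on the opposite strand, so that the stretches lie between a pair of starts. Each was read from the RefSeq Release 6 (dm6) genome, holds no annotated exon and is written 5′ to 3′ with the searched motifs in capitals. The first is the stretch before the start of mRpL3 (chrX:15760998-15761247, plus strand), the member with the highest mean percentile of its highest peak by −log10 q among those bound in all 4 libraries. It holds 1 of the 4 summits of mRpL3, the others lying just past its end, and in it the capitals mark GAGAG, a match for GAGA factor.
mRpL3: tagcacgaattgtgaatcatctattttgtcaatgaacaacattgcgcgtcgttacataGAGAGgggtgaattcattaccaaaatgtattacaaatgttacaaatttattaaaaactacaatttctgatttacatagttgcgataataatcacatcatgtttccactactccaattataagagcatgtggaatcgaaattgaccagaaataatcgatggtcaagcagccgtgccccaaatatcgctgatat

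The second lies between mRpL33 and norpA and is read on the strand of norpA (chrX:4322376-4322625, plus strand), ending at the base before the norpA start. It holds the summits of all 4 libraries, and the capitals mark GAGAG on the other strand.
mRpL33: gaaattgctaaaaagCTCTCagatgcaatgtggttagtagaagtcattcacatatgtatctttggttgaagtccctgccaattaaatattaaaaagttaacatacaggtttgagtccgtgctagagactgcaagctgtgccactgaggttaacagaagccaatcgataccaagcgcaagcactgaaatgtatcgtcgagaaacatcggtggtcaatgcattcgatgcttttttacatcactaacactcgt

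The third precedes mRpL16 (chrX:1890006-1890255, plus strand), which holds none of the 3 summits of its highest peaks, and the capitals mark CACGTG, the E-box, and TATCGATA, the DNA replication-related element (DRE) bound by the factor DREF.
mRpL16: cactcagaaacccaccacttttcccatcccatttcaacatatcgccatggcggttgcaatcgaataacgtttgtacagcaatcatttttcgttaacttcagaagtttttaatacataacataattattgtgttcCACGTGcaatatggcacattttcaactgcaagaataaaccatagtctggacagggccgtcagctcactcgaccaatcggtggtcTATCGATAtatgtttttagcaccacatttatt

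The fourth precedes mRpS23 (chr2L:13835073-13835322, minus strand) and holds 2 copies of TATCGATA but none of the 4 summits assigned to that gene, which lay beyond its other end.
mRpS23: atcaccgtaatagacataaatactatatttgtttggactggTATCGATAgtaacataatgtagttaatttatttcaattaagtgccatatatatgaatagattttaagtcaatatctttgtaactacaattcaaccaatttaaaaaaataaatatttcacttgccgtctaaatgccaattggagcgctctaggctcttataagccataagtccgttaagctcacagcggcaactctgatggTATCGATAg

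The first question was how many members CDK9 was found at, and whether that number moved with depletion of AGO2. In mock replicate 1, 19 of the 73 members had a peak (26%, against 18.6% of all genes), and in mock replicate 2, 28 had one (38.4%, against 23%). In siAGO2 replicate 1, 7 members had a peak (9.59%, against 10.8% of all genes), and in siAGO2 replicate 2, 16 had one (21.9%, against 14.9%). The siAGO2 counts lay below both mock counts, as they did over all genes. The mean was 23.5 ± 6.36 members (SD, n = 2) in mock and 11.5 ± 6.36 (SD, n = 2) in siAGO2, a ratio of 0.489 (exact permutation test, two-sided, p = 0.333, the smallest that 2 libraries against 2 can give). When the same number of top peaks, 1707, was taken from each list, the counts were 10 and 12 in mock and 7 and 12 in siAGO2, the groups overlapped and the ratio was 0.864. Without siAGO2 replicate 2 the ratio was 0.298. At the edge of the rule, the outermost peaks counted lay 1400 bp from a start of mRpL13 and 1400 and 1469 bp from the start of mRpS23, and the nearest left out lay 1626 bp from mRpL52, 1871 bp from mRpL17 and 1931 bp from mRpL48.

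The excess over all genes was positive in 3 of 4 libraries, at 7.45 and 15.3 percentage points in mock and -1.22 and 7.04 in siAGO2. Its mean was 11.4 ± 5.58 (SD, n = 2) in mock and 2.91 ± 5.84 (SD, n = 2) in siAGO2, a difference of -8.49 percentage points (exact permutation test, two-sided, p = 0.333). With siAGO2 replicate 1 left out the difference was -4.36, with mock replicate 2 left out -4.54, and with lists of equal length -1.66 percentage points. Against protein-coding genes alone, the excess was 4.99, 12.3, -2.22 and 5.33 percentage points in the same order. Only in siAGO2 replicate 1, the library with the fewest peaks, was the share of members below the share of all genes or of protein-coding genes.

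**Figure D1:**
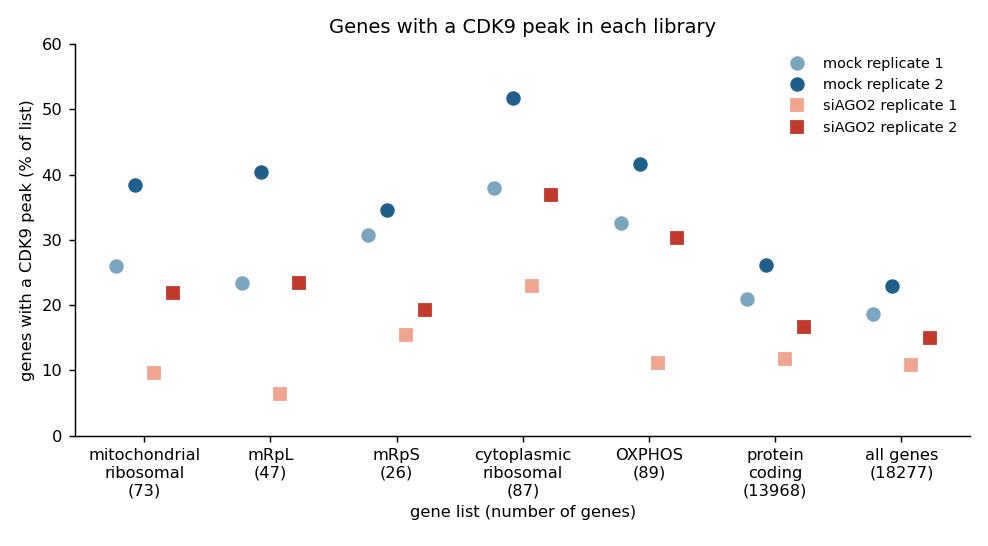
Share of genes with a CDK9 peak, in percent of each list, for the 4 libraries (circles mock, squares siAGO2), with 1 point per library and the number of genes under each list. The mitochondrial ribosomal protein genes sit at 38.4% at most, below the cytoplasmic ribosomal protein genes in each library, and siAGO2 replicate 1 is the lowest point of every list.

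Cytoplasmic ribosomal protein genes, which encode the ribosome of the cytosol, carried a peak more often. Of 87 such genes, 37.9% and 51.7% had a peak in mock and 23% and 36.8% in siAGO2. The share of members minus theirs was -11.9 and -13.4 percentage points in mock and -13.4 and -14.9 in siAGO2, so that all 4 libraries had the same sign, with a mean difference of -13.4 ± 1.21 percentage points (SD, n = 4, exact sign-flip permutation test over libraries, two-sided, p = 0.125, the smallest that 4 libraries can give). With peaks above the median −log10 q of their list the mean difference was -5.72 and with lists of equal length -8.37 percentage points.

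Nuclear genes of OXPHOS, whose products share complexes with the proteins that mitochondrial ribosomes make, lay in between. Of 89, 32.6% and 41.6% had a peak in mock and 11.2% and 30.3% in siAGO2. The share of members minus theirs was -6.56 and -3.22 percentage points in mock and -1.65 and -8.42 in siAGO2, a mean of -4.96 ± 3.08 percentage points (SD, n = 4, exact sign-flip permutation test, two-sided, p = 0.125). The sign turned to 0.873 percentage points when only peaks above the median −log10 q of their list were used.

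Neither subunit had the higher share in every library. A peak was found at 23.4% and 40.4% of large subunit members in mock and at 6.38% and 23.4% in siAGO2, and at 30.8% and 34.6% of small subunit members in mock and at 15.4% and 19.2% in siAGO2. The large subunit share minus the small subunit share was -7.36 and 5.81 percentage points in mock and -9 and 4.17 in siAGO2, so that both first replicates lay on one side of zero and both second replicates on the other. The mean was -1.6 ± 7.67 percentage points (SD, n = 4, exact sign-flip permutation test, two-sided, p = 0.75). It was 0.327 without mock replicate 1 and 0.873 without siAGO2 replicate 1.

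Over the 4 libraries, 34 members (46.6%, against 30.1% of all genes and 34.1% of protein-coding genes) had a peak in at least 1 library and 39 had none. Their nearest peak in any list lay at a median of 6490 bp, from 1626 bp upward. Among the members with no peak were mRpL1, mRpL2, mRpL11, mRpS2, mRpS5, mRpS7, mRpS9, mRpS10 and mRpS11. A missing peak says only that none passed the threshold of the caller at this depth. A peak in 1 library was found at 13 members, in 2 libraries at 13, in 3 at mRpL16 alone and in all 4 at 7 (9.59%, against 7.53% of all genes and 8.28% of protein-coding genes), a share near that of all genes. The 7 were mRpL3, mRpL33, mRpL53, mRpS14, mRpS16, mRpS17 and mRpS23.

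**Figure D2:**
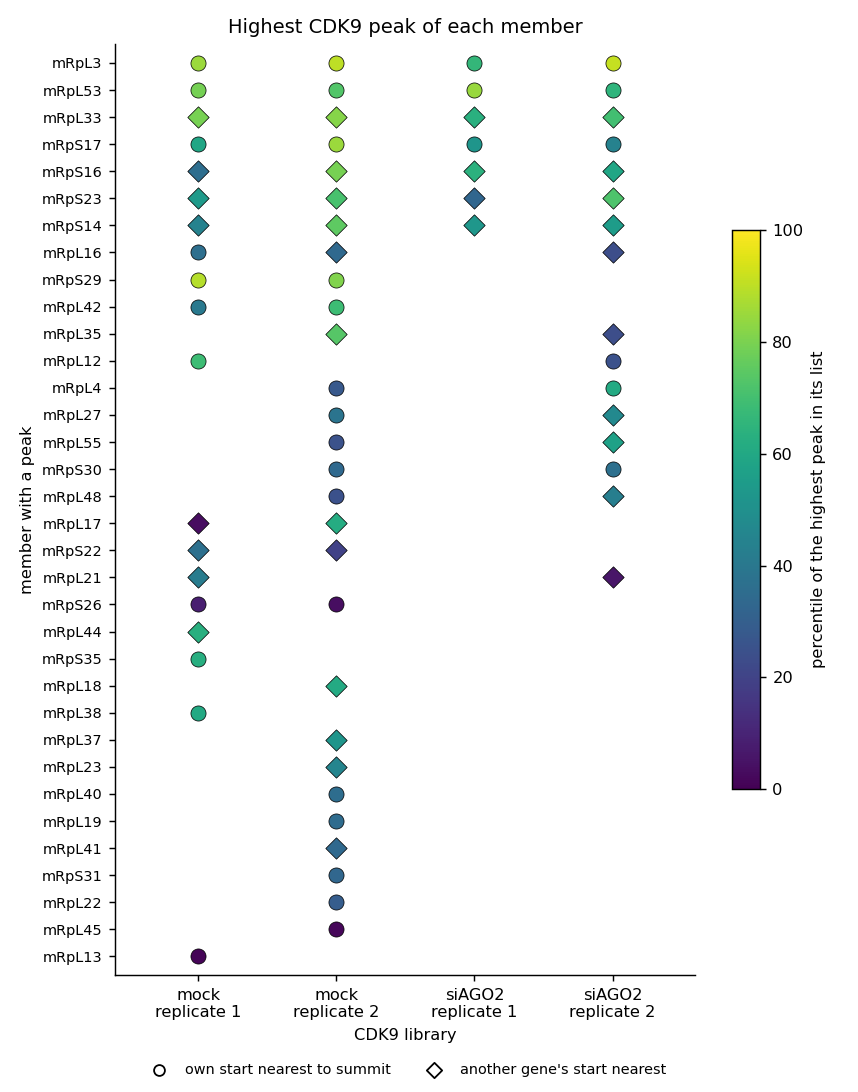
The 34 members with a peak (rows) in the 4 libraries (columns), with the percentile of the highest peak within its list by −log10 q as colour from 0 to 100. Circles mark summits nearest to the member's own start, ties included, and diamonds those nearest to the start of another gene. The 7 members at the top are filled in every column, and siAGO2 replicate 1 holds no other member.

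Of the 7 members bound in every library, 3 belong to the large subunit. mRpL3 (chrX:15761248-15762663) encodes the counterpart of bacterial ribosomal protein L3, which reaches towards the peptidyl transferase centre. Its summits lay -16, 15, 30 and 16 bp from its start, negative values being upstream, in mock replicates 1 and 2 and siAGO2 replicates 1 and 2. The number of reads at the summit was 29 and 30 in mock and 15 and 26 in siAGO2, over local backgrounds of 4.13 and 2.18 reads and 1.38 and 1.57 reads. The fold enrichment, the ratio of these numbers with 1 added to each, was 5.84 and 9.75 in mock and 6.71 and 10.5 in siAGO2. The groups overlapped, and within each group replicate 2 was the higher.

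mRpL33 (chrX:4321764-4322231) encodes a counterpart of bacterial L33 and stands head to head with norpA, the phospholipase C of phototransduction, at 395 bp. Its summits lay at -352, -365, -362 and -362 bp from its own start and 43, 30, 33 and 33 bp from that of norpA, in the stretch printed above. The fold was 4.44 and 6.84 in mock and 6.65 and 6.43 in siAGO2, with 32 and 25 reads and 14 and 15 reads at the summit. The summits of the 4 libraries lay close together, and both siAGO2 folds lay between the mock folds.

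mRpL53 (chr2R:13954195-13955664) encodes a large subunit protein of mitochondrial ribosomes and lies inside AGO1, the gene of the Argonaute that binds microRNAs, on the opposite strand, with an AGO1 start 170 bp away. It shares its coordinates with CG33155, so that the peak cannot be given to one of these. The summits lay at -63, -27, -68 and -36 bp from the shared start, with fold enrichments of 4.59 and 5.7 for mock and of 8.7 and 5.03 for siAGO2. The highest fold was in siAGO2 replicate 1, and the other siAGO2 library lay between the mock libraries.

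Of the small subunit genes, mRpS17 (chr2R:24173665-24174441), the counterpart of bacterial S17, had summits at 55, -58, -31 and -17 bp from its own start. Its divergent neighbour at 436 bp is Nop60B, a pseudouridine synthase of ribosomal RNA processing. The fold was 4.52 and 9.32 in mock and 5.86 and 5.13 in siAGO2, so that the mock libraries enclosed the siAGO2 libraries.

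mRpS16 (chr2R:14172986-14173596), the counterpart of bacterial S16, starts 97 bp from combgap (cg), which encodes a zinc finger DNA-binding protein. The summits lay at -88, -92, -146 and -183 bp from the mRpS16 start and 9, 5, 49 and 86 bp from the cg start. The fold was 3.27 and 6.58 in mock and 6.46 and 5.45 in siAGO2, again enclosed by the mock values. In siAGO2 the summits thus lay farther from mRpS16, within the cg transcript, than in mock, where they lay between the genes. That difference was seen with values known and was not tested.

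mRpS14 (chrX:19479382-19480238), the counterpart of bacterial S14, starts 21 bp from a start of Naa15-16, which encodes the auxiliary subunit of an amino-terminal acetyltransferase. Its summits lay at -84, -89, -22 and -242 bp from the mRpS14 start, all nearest to Naa15-16. The fold was 2.86 and 5.05 in mock and 4.63 and 4.95 in siAGO2, with backgrounds of 9.48 and 4.74 reads and 3.32 and 2.23 reads. The lowest fold came with the highest background, in mock replicate 1.

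mRpS23 (chr2L:13834250-13835072) encodes a small subunit protein of mitochondrial ribosomes and was counted through a peak at its far side. Its summits lay 1590, 1541, 1578 and 1495 bp downstream of its start and 145, 194, 157 and 240 bp from that of Polr2C, which encodes a subunit of RNA polymerase II. The same peak, with fold enrichments of 3.65 and 5.44 for mock and of 4.25 and 5.91 for siAGO2, also belonged to PolG2, the accessory subunit of the mitochondrial DNA polymerase. Under a window of 1500 bp the member was thus bound in every library, although each summit was nearest to another gene.

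**Figure D3:**
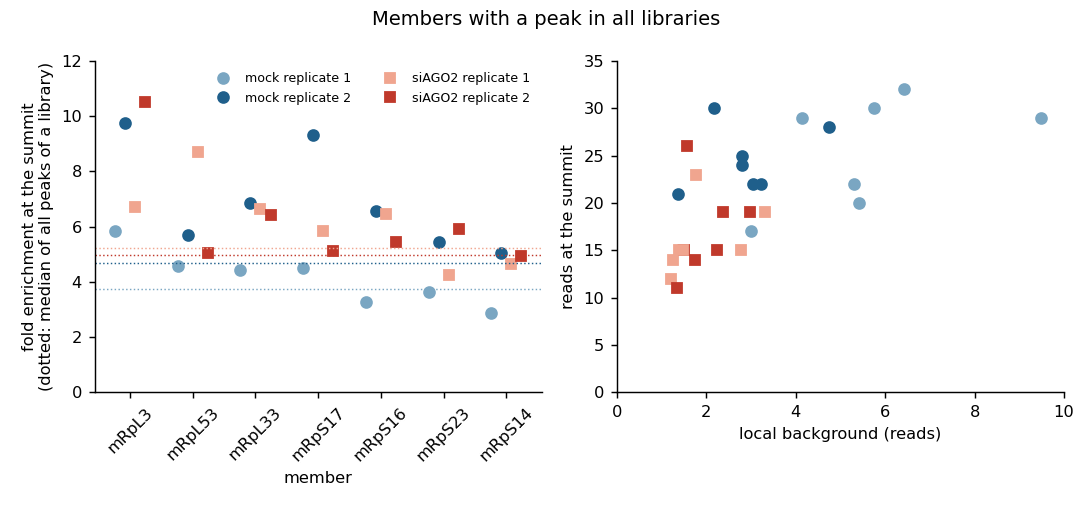
Left, fold enrichment at the summit of the 7 members with a peak in each library, 1 point per library, with dotted lines at the median fold of all peaks of a library (3.75 to 5.24). Right, reads at the summit against local background in reads for the same 28 peaks. The folds of mock and siAGO2 overlap at each member, the reads at the summit overlap at mRpL53 alone, and mock replicate 1 has the most background reads, up to 9.48 at mRpS14.

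The order of sites was compared by rank within each library. A rank by −log10 q still reflects the reads and the local background at a peak. The highest mRpS14 peak of mock replicate 1 was at percentile 44.2 by −log10 q and 11.8 by fold. The part of background in the ranks was not tested. For the 1022 regions with a peak in each of the 4 libraries, the rank of the −log10 q among these regions was converted to a normal score, library by library, and limma was fitted to the scores. Regions without a peak in every library, among them those of the members with a peak in mock alone, were left out. The fit therefore could not show a peak lost or gained. Within the regions fitted, none differed between siAGO2 and mock at an adjusted p under 0.05 (0% of 1022). At an unadjusted p under 0.05 there were 66 regions (6.46%), and none of the 7 member regions was among these. In simulated ranks, 8 of 200 regions shifted by 1 normal score were called, so a difference of that size or smaller could go uncalled. In normal scores, mRpL3 was at 0.16 and 0.35 in mock and -0.07 and 0.84 in siAGO2, a difference of 0.128 ± 0.437 (SE, limma adjusted p = 0.948). The largest difference among members was at mRpL53, with -0.14 and -0.75 in mock and 0.67 and -0.39 in siAGO2, a difference of 0.582 ± 0.489 (SE, limma adjusted p = 0.91). The other large differences were 0.527 ± 0.447 at mRpS16 and 0.346 ± 0.418 at mRpS23 (SE, limma adjusted p = 0.91 for each). Among the 7 member regions, that at the start of mRpS17 was the one lower in siAGO2, by a difference of -0.294 ± 0.432 (SE, limma adjusted p = 0.942). A further region of mRpS17, outside the 1022, was higher in siAGO2 and is given with the alternatives below. The median over the 7 was 0.324, against -0.00951 over all 1022 regions, of which 49.6% were higher in siAGO2. The groups overlapped at each of the 7 members, whereas both siAGO2 ranks lay below both mock ranks at 16.4% of regions and above them at 17.6%.

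A peak in both mock libraries and in no siAGO2 library was found at 5 members (6.85%, against 2.74% of all genes). The share was 3.3% for protein-coding genes, 6.74% for OXPHOS genes and 8.05% for cytoplasmic ribosomal protein genes, so it was not particular to the members. The reverse was found at 0 members (0%, against 0.109% of all genes). The 5 members with a peak in mock alone were mRpL17 and mRpL42 of the large subunit and mRpS22, mRpS26 and mRpS29 of the small subunit. mRpS29 (chr2R:22418937-22420376), known in mammals as the death-associated protein DAP3, a GTP-binding protein, had the highest peaks of these, with fold enrichments of 7.46 and 8.29 at percentiles 88.9 and 81.2 of its lists and 28 and 19 reads at the summit. These summits lay 157 and 133 bp inside the gene. mRpL42 (chr2R:10066650-10067242), a large subunit protein, reached 3.83 and 5.53 at percentiles 40.3 and 68.7, with 16 and 20 reads at summits 298 and 111 bp inside the gene.

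The remaining 3 lay lower in their lists in at least 1 library. mRpS26 (chr3L:18106579-18107499) had folds of 2.96 and 3.16 at percentiles 8.31 and 3.65, close to the threshold in both lists. mRpS22 (chr3R:27916908-27918248) had folds of 3.71 and 3.34 at percentiles 36.6 and 19.9, with both summits nearest to the start of CG5003. At mRpL17 (chr3L:264779-265932), the summits lay 102 and 302 bp from the start of Tudor-SN, a nuclease of the RNA-induced silencing complex, and the folds were 2.96 and 5.5 at percentiles 3.45 and 61.6. siAGO2 replicate 2 had a peak 1871 bp from mRpL17, which the window left out. With fewer background reads in both siAGO2 libraries, whether a missing peak there reflects less binding was not tested.

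mRpL16 (chrX:1890256-1891482), the counterpart of bacterial L16, was bound in both mock libraries and siAGO2 replicate 2. The summit of its highest peak lay at 498 bp from its start in mock replicate 1, where the gene had 2 peaks, and, nearest to trr, at -408 and -576 bp in mock replicate 2 and siAGO2 replicate 2. trr encodes a histone H3 lysine methyltransferase. The fold was 3.58, 3.99 and 4.54, with 17, 15 and 9 reads at the summit.

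The position of the peaks relative to the members was examined next. A start on the opposite strand lay within 1000 bp upstream at 58 of 73 members (79.5%), compared with 38.2% of protein-coding genes, 63.2% of cytoplasmic ribosomal protein genes and 50.6% of OXPHOS genes. Members were also short, with a median length of 909 bp against 2160 bp for protein-coding genes. Among genes with such a divergent start, 48.3% of members and 47.8% of protein-coding genes had a peak in at least 1 library. Among those without, the shares were 40% (6 of 15 members) and 25.7%. This split was chosen after the values were seen. All 7 members bound in every library had a divergent start, 12.1% of the 58, and 10.9% of protein-coding genes with a divergent start were bound in every library.

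Each member contributed its highest peak per library, 70 in all, and 65 of these peaks also belonged to another gene by the same rule. The start nearest to the summit was that of the member in 36 and that of a neighbour in 34, in 33 of them a gene on the opposite strand. A tie with another gene counted as the member's. Ties were found at mRpL53 in each library, with CG33155, and at mRpL13 in mock replicate 1, with CG10602. Per library, the member was nearest at 57.9% and 57.1% in mock and at 42.9% and 37.5% in siAGO2, against 59.9% and 59.9% and 63.7% and 61.6% for protein-coding genes with a peak. By member, 17 were nearest to the summit in every library with a peak, among them mRpL3, mRpL53 and mRpS17, 13 in none, among them mRpL33, mRpS14, mRpS16 and mRpS23, and 4 in some. Of the 70 summits, 53 lay in an exon of some gene, 7 in an intron and 10 between genes.

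**Figure D4:**
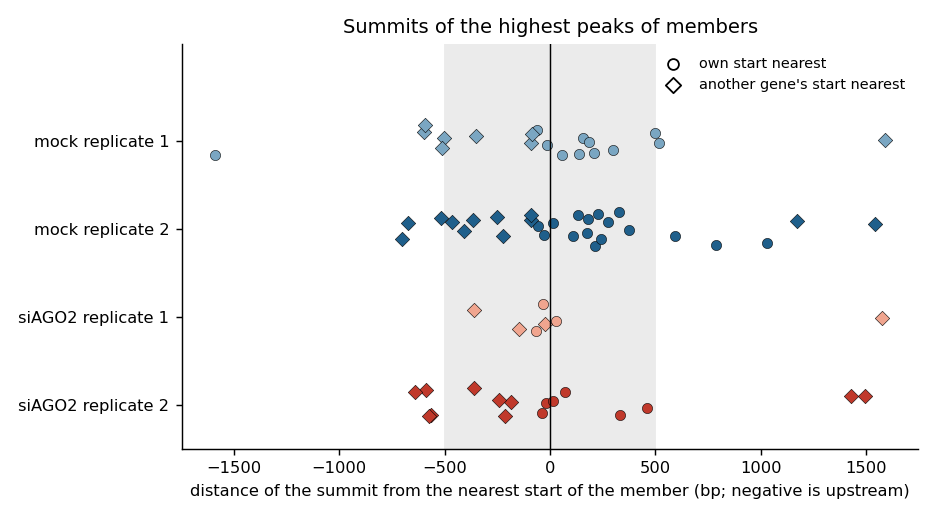
Distance in bp of the summit of each member's highest peak from the nearest start of that member, by library, with upstream to the left and the grey band at 500 bp either side. Circles are summits nearest to the member's start, ties included, and diamonds those nearest to another gene. Circles lie mostly downstream of the start and diamonds mostly upstream, and 63.2%, 71.4%, 85.7% and 62.5% of summits fall in the band in mock replicates 1 and 2 and siAGO2 replicates 1 and 2.

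The share of summits within 500 bp of a member start was 63.2% and 71.4% in mock (67.3 ± 5.85%, SD, n = 2) and 85.7% and 62.5% in siAGO2 (74.1 ± 16.4%, SD, n = 2), a difference of 6.81 percentage points (exact permutation test, two-sided, p = 1). The groups overlapped. Without siAGO2 replicate 1, which rests on 7 members, the difference was -4.79 and without siAGO2 replicate 2 it was 18.4 percentage points. For protein-coding genes with a peak the shares were 50.7% and 61.6% in mock and 65.8% and 61.9% in siAGO2.

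Member peaks lay near the middle of their lists. The median percentile of a member's highest peak within its list was 54 and 41.9 in mock (48 ± 8.57, SD, n = 2) and 63.5 and 50.8 in siAGO2 (57.2 ± 8.98, SD, n = 2), a difference of 9.21 (exact permutation test, two-sided, p = 0.667). For protein-coding genes with a peak the median percentile was 53.8 (mock replicate 1), 55 (mock replicate 2), 53.5 (siAGO2 replicate 1) and 52.1 (siAGO2 replicate 2). The median fold of member peaks was 3.88 and 4.75 in mock and 6.46 and 5.25 in siAGO2, and the largest was 10.5, at mRpL3 in siAGO2 replicate 2. Peaks of protein-coding genes reached 26.8 to 46.1. The difference in percentile was 3.15 without mock replicate 2, 2.86 without siAGO2 replicate 1, 15.3 without mock replicate 1 and 15.6 without siAGO2 replicate 2.

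Motifs were counted in promoter windows running from 250 bp before the first start to 50 bp after, as a description of the sequences. TATCGATA was found in 15 of 73 members (20.5%), 29.9% of cytoplasmic ribosomal protein genes, 10.1% of OXPHOS genes and 7.48% of all genes. Of the members bound in every library it was in mRpL3 and mRpS23. The match of mRpL3 did not lie within the stretch printed above. GGTCACAC, the core of the motif bound by M1BP, was in 8 members (11%, against 6.08% of all genes). Its share was 14.9% for cytoplasmic ribosomal protein genes and 19.1% for OXPHOS genes. CACGTG was in 5 (6.85%, against 4.27%), and GCGCATGC, which resembles the core of the NRF-1 site, was in mRpL21 alone (1.37%, against 0.93%). GAGAG was in 12 members (16.4%), less than the 29.5% of all genes, although mRpL3, mRpL33 and mRpL53 were among them. It was also below that share in cytoplasmic ribosomal protein genes (17.2%) and OXPHOS genes (23.6%). TATAAA on the strand of the gene was in 31.5% of members and 30.1% of all genes. All motifs but TATAAA were searched on both strands, no motif contains another, and a match is not a bound site. The windows had a median GC content of 34.7% for members and 38.3% for all genes.

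On the X chromosome 7 of 11 members had a peak in at least 1 library (63.6%), against 45.9% of protein-coding genes of that chromosome, and on the autosomes 27 of 62 members (43.5%), against 31.9%. Of the 7 members bound in every library, mRpL3, mRpL33 and mRpS14 lay on the X. These were 27.3% of the 11 X members, against 13.6% of protein-coding genes of the X. On the autosomes the shares were 6.45% of the 62 members and 7.28% of protein-coding genes.

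Other genes of mitochondrial gene expression were given beside the members. technical knockout (tko) and bonsai encode small subunit proteins of the mitochondrial ribosome under other symbols, and tko had no peak in the 4 libraries. bonsai had a peak in siAGO2 replicate 2 alone, with a fold of 4.19, whose summit was nearest to CG17807 and which was also assigned to Cdk9, the gene of the kinase itself. Among all genes, 30.1% had a peak in at least 1 library, with 18.6% and 23% in mock and 10.8% and 14.9% in siAGO2. Of 15 mitochondrial aminoacyl-tRNA synthetase genes, which charge the transfer RNAs used by these ribosomes, 6 had a peak (40%). Each had it in 1 mock library, with folds from 2.87 (SerRS-m) to 4.94 (AspRS-m). Of 9 mitochondrial translation factor genes, 3 had a peak (33.3%), namely the release factor gene mRF1 and the elongation factor genes mEFTs and mEFTu1. Of 12 genes of mitochondrial genome transcription and maintenance, 6 had a peak (50%). mtTFB1, a transcription factor gene, had folds of 4.77 and 5.07 for mock and of 5.12 and 4.17 for siAGO2. PolG2 was the other one bound in every library, through the peak it shares with mRpS23. PolrMT, the mitochondrial RNA polymerase gene, was bound in both mock libraries and siAGO2 replicate 2, with folds of 3.08, 3.24 and 4.02.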

How the data were processed

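CDK9 ChIP-seq was measured in 2 mock and 2 siAGO2 libraries with inputs. Per the labels and methods, the authors trimmed reads (cutadapt), aligned them to dm6 (Bowtie2), removed duplicates (Picard) and called peaks per replicate with MACS2, for which the submitters' processing notes give version 2.1.1.20160309 and whose settings for CDK9 are not given in the sources used here. Each replicate was called alone, so lists can differ in length with the depth of a library and its input, which was not tested. Each deposited list gives a score, a fold enrichment (ratio), −log10 p, −log10 q and the summit offset. No authors' comparison was used.

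From the deposited fold ratio and −log10 p, reads at the summit and local background were recovered under a Poisson model for 100% of peaks (tolerance 0.0005 in −log10 p, up to 599 reads tried). This was tested on simulated data. Read totals were not used, and no interval was computed. Genes were those of Ensembl release 115 for dm6 on 7 chromosomes, 18277 in all, without transposable elements. Peak coordinates lay within the lengths of the RefSeq Release 6 chromosomes. Coordinates count from 1.

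Groups were compared with exact permutation tests, differences between lists with exact sign-flip tests over 4 libraries, and ranks of the 1022 shared regions with limma 3.58.1 (R 4.3.3, Benjamini-Hochberg). With 2 libraries per group the smallest permutation p is 0.333, and with 4 sign flips 0.125, so no such test can reach 0.05. Members bound in all 4 libraries, in both libraries of 1 group alone or in 3 libraries are named with values. Those without a peak and other genes are named as lists or by family. The members, lists and motifs were chosen with earlier results of these data known. Alternatives changed the window, gene part, peak threshold, list length, background, ranking and merging, and left out each library.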

Additional observations from a re-analysis of the deposited data

How the results depend on the processing

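Of 80 alternative values for the main comparisons, 73 kept their direction or their count of regions. A further 5 changed sign and 2 were counts of regions that moved. The permutation and sign-flip tests had too few libraries to pass the threshold in any setting, so only direction was compared for them. Some of the 73 equalled the main value. The ratio of members with a peak was again 0.489 with the promoter window alone. Pairing by replicate number leaves a mean difference as it is, such as -13.4 percentage points against cytoplasmic ribosomal protein genes. The share of members minus that of OXPHOS genes was 0.873 percentage points with peaks above the median −log10 q of their list. The large minus small subunit share was 0.757 percentage points with summits in place of overlaps. With a library left out the ratio of members with a peak ranged from 0.298 to 0.681, the change in their excess over all genes from -12.6 to -4.36 percentage points, their difference from cytoplasmic ribosomal protein genes from -13.9 to -12.9, that from OXPHOS genes from -6.06 to -3.81, the large minus small subunit share from -4.06 to 0.873, the change in median percentile from 2.86 to 15.6 and the change in summits within 500 bp from -4.79 to 18.4 percentage points. The cause of each reversal was not tested.

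In limma, 0 to 1 regions were called with a library left out, the 1 without mock replicate 2. Rank differences at members turned sign 6 times in 63 alternatives. With a library left out they ranged from -0.317 to 0.53 at mRpL3, from -0.0624 to 0.0663 at mRpL33, from -0.666 to 0.084 at mRpS17 and from -0.088 to 0.717 at mRpS23. The mRpS17 range is that of the region at its start. Its further region (chr2R:24174767-24175104) was at 0.895 without mock replicate 1 and at 0.784 with regions of at least 3 libraries. With regions of at least 3 libraries mRpL33 was at -0.0857. Adjusted p at the 7 members ranged from 0.575 to 1 over all settings, so no member was called in any of them.

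The labels link mock and siAGO2 libraries by a replicate number only. They do not say whether same-numbered libraries were prepared together. Deviations of same-numbered libraries over 1022 regions had r = 0.00101, and with the replicate block limma called 2 regions in place of 0, neither at a member. Paired by number, the ratio of members with a peak was 0.459 (exact sign-flip permutation test, p = 0.5, the smallest that 2 pairs can give).

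The lowest reads at the summit of a peak were 5 to 10 depending on the library, and the part of depth in the length of a list was not tested. The siAGO2 libraries alone held 7 and 16 members with a peak. A peak shared by several genes cannot be given to one of them, and without CDK9 read profiles the height of binding at members without a peak was not measured.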
